A study of Mus musculus with 33 samples.

Results

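Of the 96532 open-chromatin peaks called in E9.5 mouse endothelial cells carrying 1 added copy of Runx1, 9448 (9.79%) overlapped, by 1 bp or more, no peak of E9.5 control cells and no peak of E13.5 cells with 1 added copy. These 9448 regions are referred to as E9.5-gained peaks. The peak calls of those 3 lists chose the regions, so their presence in the first list and absence from the other lists is a definition, and every value from those lists is given as a description. "E9.5 only" holds for the cells with 1 added copy alone: some of the regions were peaks in E13.5 cells with 2 added copies or in E13.5 control cells, as described with the other lists.

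The study raised RUNX1 in endothelial cells of E9.5 whole embryos, E13.5 whole fetuses and the livers of adults 4 to 6 weeks old, and its title names TGFβ target genes and hemogenic specification as its subject. Cells were sorted as CD41- CD45- Ter119- CD31+ VE-cadherin+ with low or positive cKIT. RNA was sequenced in 13 libraries, ATAC-seq was done in 14 libraries (2 in each of 7 groups, with 1 pooled peak list per group), and H3K4me1 ChIP-seq in 4 libraries with 2 inputs. The E9.5 1Runx1 cells (Cre; CKI/+) were set against E9.5 Ctrl cells (CKI/+). At E13.5 there were 1Runx1 cells (Cre; CKI/+), 2Runx1 cells (Cre; CKI/CKI) and Ctrl cells (CKI/CKI; CKI/+), and in adult liver 2Runx1 cells (Cre; CKI/CKI) and Ctrl cells (CKI/CKI; CKI/+). CKI is the labels' name for the allele that carries the added Runx1. No Cre is named for any Ctrl group, so an effect of Cre and an effect of the added Runx1 cannot be told apart, and no source used here names the promoter that drives Cre. All groups received 2 mg of tamoxifen, at the embryonic stages 24 hours before harvest through the mother, and in adults by gavage at an interval that is not given. E9.5 embryos came from superovulated females and a C57BL/6J-129Sv/J x B6C3F1 cross, while the other stages were C57BL/6J-129Sv/J, so stage and cross cannot be told apart.

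RUNX1 is a DNA-binding transcription factor that endothelial cells need in order to turn into blood-forming cells, a step known as the endothelial-to-haematopoietic transition, which takes place in a small population called hemogenic endothelium during mid-gestation. It binds a short core sequence as a dimer with CBFβ and can act with other factors to open chromatin at enhancers and promoters. ATAC-seq marks open chromatin by where a transposase can cut, and H3K4me1 is a histone mark common at enhancers.

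Few E9.5-gained peaks lay at promoters, and sequence was read only there. RefSeq promoter windows (GRCm38.p6, 250 bases before to 50 bases after a start site) held the summit of an E9.5-gained peak in 97 cases, and 24 of these windows held the RUNX core TGTGGT on either strand (read as ACCACA on the other). The 5 printed first are those with a core, a named gene in the RNA table and the highest peak fold enrichment. Gp9 and Gfi1 follow because they belong to lists of megakaryocyte markers and hemogenic regulators. All 7 were chosen after their values were seen. Each window reads 5′ to 3′ along its gene, and capitals mark the RUNX core.
Mcpt8 promoter: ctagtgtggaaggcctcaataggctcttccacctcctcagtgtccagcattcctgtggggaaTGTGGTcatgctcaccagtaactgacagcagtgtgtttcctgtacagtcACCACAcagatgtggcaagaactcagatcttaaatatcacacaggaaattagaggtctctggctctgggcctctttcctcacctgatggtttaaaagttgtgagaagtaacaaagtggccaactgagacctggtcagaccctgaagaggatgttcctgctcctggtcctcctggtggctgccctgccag
Tnfrsf9 promoter: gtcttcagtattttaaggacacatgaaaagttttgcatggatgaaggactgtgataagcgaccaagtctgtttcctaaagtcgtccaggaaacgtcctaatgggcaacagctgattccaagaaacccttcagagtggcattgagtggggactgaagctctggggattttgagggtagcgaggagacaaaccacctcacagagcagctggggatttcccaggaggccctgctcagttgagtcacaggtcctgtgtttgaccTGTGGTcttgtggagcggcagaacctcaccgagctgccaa
Tigit promoter: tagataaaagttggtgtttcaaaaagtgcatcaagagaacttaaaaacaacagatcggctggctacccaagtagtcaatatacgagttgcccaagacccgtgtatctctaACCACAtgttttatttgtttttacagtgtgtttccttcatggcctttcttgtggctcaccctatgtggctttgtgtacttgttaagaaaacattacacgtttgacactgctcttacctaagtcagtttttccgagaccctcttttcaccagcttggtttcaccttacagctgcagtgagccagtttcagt
Cxcr6 promoter: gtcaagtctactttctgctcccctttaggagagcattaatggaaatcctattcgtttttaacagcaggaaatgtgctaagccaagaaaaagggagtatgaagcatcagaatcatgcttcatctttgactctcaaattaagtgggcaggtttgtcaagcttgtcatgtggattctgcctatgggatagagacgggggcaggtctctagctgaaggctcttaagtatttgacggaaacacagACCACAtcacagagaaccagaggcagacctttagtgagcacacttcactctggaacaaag
Slc6a13 promoter: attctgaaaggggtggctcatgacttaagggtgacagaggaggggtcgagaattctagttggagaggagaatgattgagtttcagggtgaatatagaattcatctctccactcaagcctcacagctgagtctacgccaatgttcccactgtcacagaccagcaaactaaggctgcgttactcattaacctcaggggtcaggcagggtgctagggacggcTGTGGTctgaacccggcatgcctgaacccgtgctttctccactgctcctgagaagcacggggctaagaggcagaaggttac
Gp9 promoter: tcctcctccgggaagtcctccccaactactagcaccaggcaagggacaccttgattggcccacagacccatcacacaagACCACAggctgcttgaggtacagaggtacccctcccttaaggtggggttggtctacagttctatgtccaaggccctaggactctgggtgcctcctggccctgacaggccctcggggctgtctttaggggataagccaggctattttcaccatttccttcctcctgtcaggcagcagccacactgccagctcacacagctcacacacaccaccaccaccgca
Gfi1 promoter: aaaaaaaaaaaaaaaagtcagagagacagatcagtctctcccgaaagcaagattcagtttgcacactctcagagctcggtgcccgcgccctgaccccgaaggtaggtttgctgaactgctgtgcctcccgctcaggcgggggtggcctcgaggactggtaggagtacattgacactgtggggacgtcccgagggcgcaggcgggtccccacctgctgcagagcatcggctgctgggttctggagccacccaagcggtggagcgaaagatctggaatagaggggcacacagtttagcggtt
The windows are chr14:56085148-56085447 (minus strand) for Mcpt8, a protease of basophils, and chr4:150927749-150928048 (plus) for Tnfrsf9, a costimulatory receptor of the tumour necrosis factor family. They are chr16:43664135-43664434 (minus) for Tigit, an inhibitory receptor of T and natural killer cells, and chr9:123806227-123806526 (plus) for Cxcr6, a chemokine receptor. The others are chr6:121300490-121300789 (plus) for Slc6a13, a GABA transporter, chr6:87777820-87778119 (plus) for Gp9, a platelet glycoprotein, and chr5:107725756-107726055 (minus) for Gfi1, a repressor that acts downstream of RUNX1 in the endothelial-to-haematopoietic transition.
The core lay 0 bases from the summit at Tnfrsf9, 6 bases at Gp9, 14 at Mcpt8, 40 at Cxcr6, 108 at Tigit and 186 at Slc6a13. Mcpt8 held 2 cores, and the Gfi1 window, whose peak had a fold enrichment of 2.22, held none.

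The transcripts of these 7 genes were scarce at E9.5, with 6 of the 7 genes under 1 RPKM (reads per kilobase of gene, scaled to library size) in every E9.5 library. Tnfrsf9 had 1.62 and 0.814 RPKM in E9.5 1Runx1 cells, against 1.40 and 1.2 RPKM in E9.5 Ctrl cells, so the groups overlapped. Gfi1 had 0.475 and 0.740 RPKM in 1Runx1 cells, against 0.291 and 0.286 RPKM in Ctrl cells, and was too low to enter the test. Mcpt8 and Tigit were listed at 0 in all 4 E9.5 libraries.

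Runx1 RNA was higher in every library with added Runx1 than in the Ctrl libraries of its stage, while the E13.5 2Runx1 and 1Runx1 libraries overlapped. Runx1 had 14.9 and 16.2 RPKM in E9.5 1Runx1 cells, against 0.915 and 0.904 RPKM in E9.5 Ctrl cells. At E13.5 it had 28.9 and 23.7 RPKM in 1Runx1 cells and 22.7 and 25.2 RPKM in 2Runx1 cells, against 1.37 RPKM in the 1 Ctrl library, and in liver 78.1 and 78.4 RPKM in 2Runx1 cells, against 1.19 and 1.53 RPKM in Ctrl cells. All 18 endothelial markers reached 0.1 RPKM in at least 1 library of each E9.5 group. They summed to 3357 to 3453 RPKM in 1Runx1 cells, against 3573 to 3618 RPKM in Ctrl cells. Of the 18, Sox7 was called higher and Tek lower. The marker sum of macrophage genes was 11.7 to 12.1 RPKM in E9.5 1Runx1 cells, against 5.55 to 5.66 RPKM in Ctrl cells, and that of hepatocyte genes 31.9 to 35.2 RPKM in 1Runx1 cells, against 18.7 to 19.98 RPKM in Ctrl cells. The pan-haematopoietic sum was 32.2 to 35.8 RPKM in 1Runx1 cells, against 24.2 to 25.03 RPKM in Ctrl cells. The groups did not overlap in any of these 3 sums, and their part in the results was not tested. They did not overlap in the endothelial and erythroid sums either. The megakaryocyte sum was 6.70 to 9.61 RPKM in 1Runx1 cells, against 6.44 to 6.53 RPKM in Ctrl cells. The epithelial sum was 16.3 to 22.0 RPKM in 1Runx1 cells, against 23.2 to 24.1 RPKM in Ctrl cells. Only the mesenchymal and neural sums overlapped. Groups of 2 libraries did not overlap in 48.9% of all tested genes with a start site. Of 14 macrophage markers Lyz2, Fcgr3 and Fcer1g were called higher, while Ptprc (CD45) and the macrophage gene Adgre1 were listed at 0 in all 4 E9.5 libraries, and Trf (transferrin) was the 1 hepatocyte marker that was called higher. The erythroid sum was 84.7 to 172 RPKM in 1Runx1 cells, against 176 to 178 RPKM in Ctrl cells. Nothing in the labels ties replicates to different litters or animals, so p-values measure the spread between these libraries, which may be technical.

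The E9.5-gained peaks were short and weakly enriched. Their fold enrichment, as the authors' peak caller gave it, had a median of 4.03, with 1.57 the lowest, 6.79 the 95th percentile and 26.3 the highest. The 2332 peaks gained with 1 copy at both embryonic stages (in both 1Runx1 lists and in neither embryonic Ctrl list) had a median fold of 4.72. The 81636 peaks shared with E9.5 Ctrl had a median fold of 8.27. The reverse set, 11513 of the 99298 E9.5 Ctrl peaks that overlapped neither 1Runx1 list, was the most similar, with a median fold of 3.6 and a highest fold of 11.6. Median widths followed the same pattern, with 145 bp for E9.5-gained peaks, 180.5 bp for those gained at both stages, 344 bp for shared peaks and 142 bp for the reverse set.

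**Figure D1:**
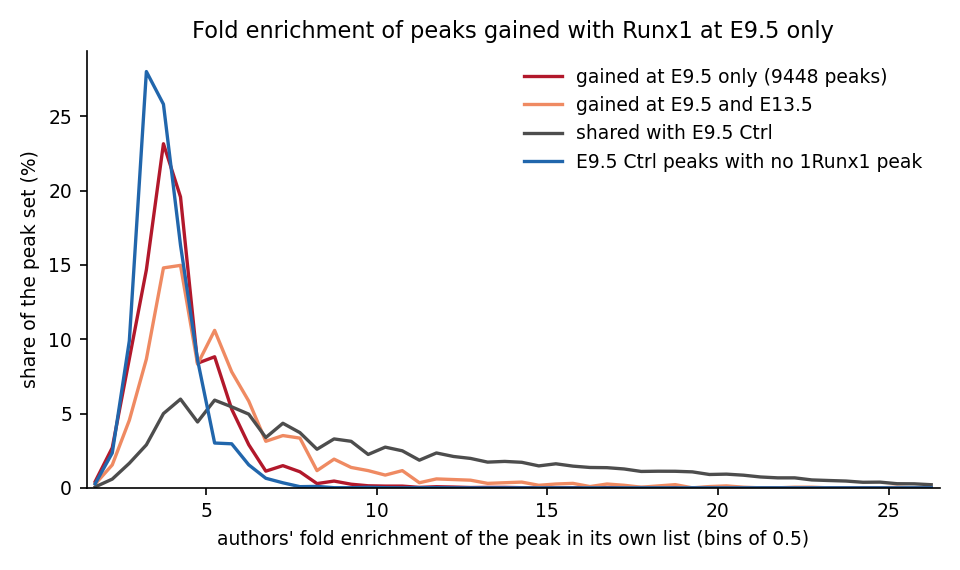
Share of each peak set (vertical axis, percent) by the authors' fold enrichment of the peak in its own list (horizontal axis, bins of 0.5). The E9.5-gained peaks (median 4.03) and the reverse set of E9.5 Ctrl peaks (median 3.6) crowd the low end, and the peaks shared with Ctrl (median 8.27) reach far beyond it; a thin tail of E9.5-gained peaks runs up to 26.3.

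The share of the list that was gained fell with strength: 31.6% of E9.5 1Runx1 peaks with a fold under 4 were E9.5-gained, 16.5% of those from 4 to 6, 3.00% of those from 6 to 10 and 0.171% of those of 10 or more. In the reverse set the same shares of the E9.5 Ctrl list were 36.9%, 14.3%, 1.28% and 0.0104%. At the strong end the counts parted, with 57 E9.5-gained peaks of fold 10 or more, against 3 in the reverse set. The whole lists differed too, with 33274 E9.5 1Runx1 peaks and 28889 E9.5 Ctrl peaks of fold 10 or more. Their median folds were 7.15 and 6.37, and the part of this in the counts was not tested. No test can be run on these counts, since each group has 1 pooled list.

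A yes-or-no overlap rule places many of these regions close to a peak they are said to lack. E9.5-gained peaks lay within 100 bp of an E9.5 Ctrl peak in 195 cases (2.06%) and within 500 bp in 1657 cases (17.5%), and within 500 bp of either list used to exclude in 1927 cases (20.4%). The median gap to the nearest E9.5 Ctrl peak was 3576.5 bp. Just inside the rule, the peak at chr3:149170159-149170390 abutted a Ctrl peak with no shared base and had a fold of 4.43. Just outside it, the peaks at chr16:22623983-22624114 (fold 3.54) and chr7:139139886-139140019 (fold 5.02) shared 1 bp with a Ctrl peak. The E9.5-gained share of the list ran from 7.88% on chromosome 11 to 11.9% on chromosome 1 among the chromosomes other than Y, and 1709 peaks (18.1%) had another E9.5-gained summit within 10 kb.

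Most E9.5-gained peaks were far from promoters. Distances are to RefSeq start sites of the 18740 genes of the RNA table that have one, so start sites of other genes were not counted. Among the 9089 peaks off chromosome 18, whose start sites were not used here, 304 summits (3.34%) lay within 1 kb of such a start site. A further 15.3% lay from 1 to 10 kb, 37.4% from 10 to 50 kb and 44.0% beyond 50 kb. Peaks gained at both stages had 2.61% and the reverse set 2.89% of summits within 1 kb, while peaks shared with Ctrl had 16.2%. The median distance to a start site was 39.6 kb for E9.5-gained peaks, 40.2 kb for peaks gained at both stages, 26.1 kb for shared peaks and 41.7 kb for the reverse set. An annotated gene contained 62.3% of the E9.5-gained summits, against 64.4% of shared summits and 63.9% of the reverse set.

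**Figure D2:**
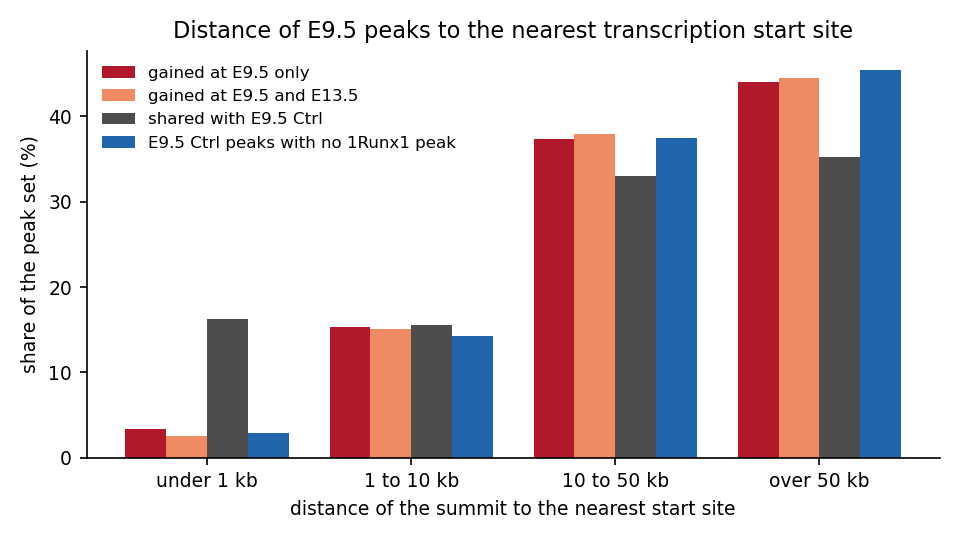
Share of each peak set (vertical axis, percent) by the distance of the summit to the nearest RefSeq start site of a gene in the RNA table (horizontal axis). Within 1 kb, the E9.5-gained peaks (3.34%), the peaks gained at both stages (2.61%) and the reverse set (2.89%) stand well under the peaks shared with Ctrl (16.2%).

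The ATAC lists that the rule did not use are those of E13.5 2Runx1, E13.5 Ctrl and both liver groups. E9.5-gained peaks were present in the E13.5 2Runx1 list in 876 cases (9.27%, exact 95% interval 8.69 to 9.87%) and in the E13.5 Ctrl list in 877 cases (9.28%). They were in the liver 2Runx1 list in 195 cases (2.06%) and in the liver Ctrl list in 162 cases (1.71%). None of the 4 lists held 7701 of them (81.5%), close to the 81.7% of the reverse set, while among peaks shared with Ctrl the share was 12.3%. The intervals cover counting over regions and no error between animals.

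Presence in 1 of the lists and absence from the other separates the directions. At E13.5, 686 E9.5-gained peaks (7.26%) were in the 2Runx1 list and not in Ctrl, and 687 (7.27%) were in Ctrl and not in 2Runx1. Over the whole E9.5 1Runx1 list these shares were 4.44% and 9.10%, and among peaks shared with E9.5 Ctrl they were 2.90% and 8.69%. In the reverse set they were 2.74% and 11.0%. The balance of E9.5-gained peaks was thus even, while the whole list, the shared peaks and the reverse set leaned towards Ctrl. At this stage the 2Runx1 list (80857 peaks) was shorter than the Ctrl list (96537 peaks). In liver, 110 E9.5-gained peaks (1.16%) were in the 2Runx1 list and not in Ctrl, against 77 (0.815%) in Ctrl and not in 2Runx1, and the reverse set had 86 (0.747%) and 140 (1.22%).

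The E13.5 shares differed by fold enrichment. Among E9.5-gained peaks with a fold under 4, 241 (5.14%) were in E13.5 2Runx1 and not Ctrl, against 328 (7.0%) in Ctrl and not 2Runx1. From 4 to 6 the counts were 296 (7.45%) and 306 (7.70%). From 6 to 10 they were 126 (17.3%) and 52 (7.13%), and of the 57 peaks of fold 10 or more 23 (40.4%) were in 2Runx1 alone and 1 (1.75%) was in Ctrl alone. In the reverse set the lean ran the other way and also grew, with 13 (4.10%) in 2Runx1 alone and 75 (23.7%) in Ctrl alone among 317 peaks of fold 6 to 10. Peaks gained at both stages, absent from E13.5 Ctrl by definition, had 2Runx1-alone shares of 36.4%, 47.5%, 72.4% and 91.5% over the 4 bands. Over the whole E9.5 1Runx1 list these shares were 6.05%, 6.44%, 5.05% and 1.82%. The bands came from the list that chose the regions, and the rule also removed every region of the E13.5 1Runx1 list, so these shares are a description. Over the 4 bands the Ctrl-alone share of E9.5-gained peaks stayed between 1.75% and 7.70%.

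**Figure D3:**
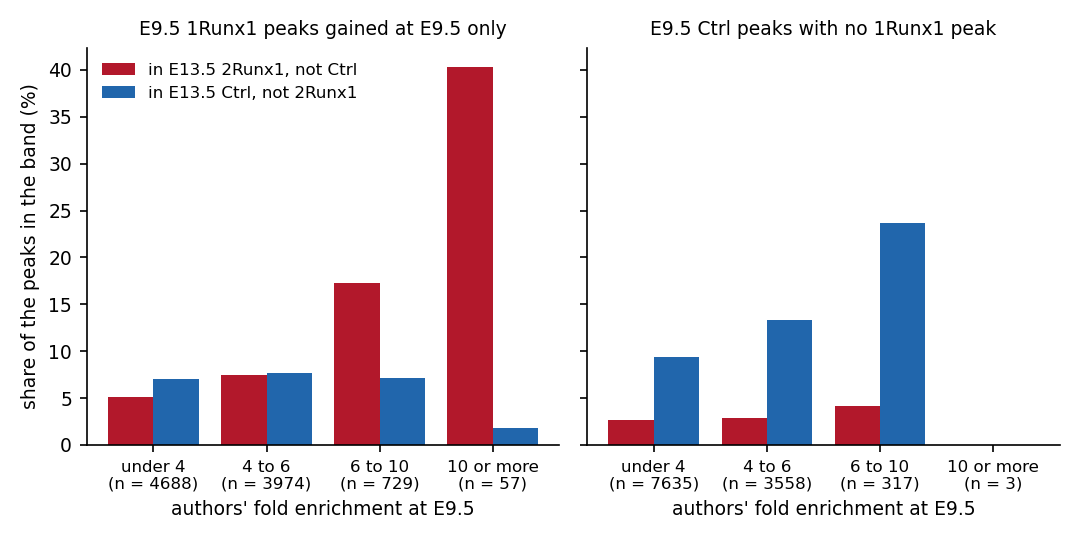
Share of peaks (vertical axis, percent) found in the E13.5 2Runx1 list and not in the Ctrl list (red) or in the Ctrl list and not in the 2Runx1 list (blue), by band of the authors' fold enrichment at E9.5 (horizontal axis). Among E9.5-gained peaks (left panel) the red share climbs to 40.4% at fold 10 or more while the blue share ends at 1.75%; in the reverse set (right panel) the blue share climbs to 23.7% at fold 6 to 10.

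None of the 10 strongest regions was a promoter, and the nearest to a start site of the RNA table's genes was 10.1 kb away. The E9.5-gained peak with the highest fold, chr1:79285257-79285565 (fold 26.3), lay in no annotated gene and in none of the other lists. The next, chr3:29598917-29599313 (fold 22.4), lay inside Egfem1, and chr3:29768674-29769067 (fold 19.8) lay inside the noncoding Gm33206, 77.6 kb from Egfem1. The others were chr9:85121093-85121467 (fold 19.8, in no gene), chr8:127638928-127639509 (fold 18.7, inside Gm32478, with the cell polarity gene Pard3 26.6 kb away) and chr1:135083367-135083765 (fold 17.7, inside Lgr6, an R-spondin receptor). They were followed by chr9:99699644-99700213 (fold 17.6, inside the tight-junction gene Cldn18) and chr11:45089450-45089919 (fold 16.8, inside Gm51859, with the B-cell factor Ebf1 81.4 kb away). The list of 10 ended with chrX:138620190-138620443 (fold 16.8, inside Il1rapl2) and chr5:146815505-146815759 (fold 16.2). The peaks inside Egfem1 and Lgr6 and the one near Pard3 were also in the E13.5 2Runx1 list. None of the 10 was in the E13.5 Ctrl list, a liver list or an H3K4me1 list.

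Few regions were also peaks with 2Runx1 at both later stages. In both the E13.5 and the liver comparison, 18 E9.5-gained peaks (0.191%) were in the 2Runx1 list and not in Ctrl, near the 0.138% of the whole E9.5 1Runx1 list, against 48 (2.06%) of the peaks gained at both stages and 5 (0.0434%) of the reverse set. The strongest, chr16:95374724-95375303 (fold 8.99), had its nearest start site at Erg, an endothelial ETS factor, 84.3 kb away. Others lay 1.57 kb from Pde1c, a phosphodiesterase (chr6:56367928-56368140, fold 7.68), 14.1 kb from the receptor gene Notch2 (chr3:98027487-98027717, fold 6.25) and 35.0 kb from the endocytic adaptor Dab2 (chr15:6334752-6335354, fold 6.12). Dapp1, an adaptor in B cells, had such a peak 0.788 kb from its start site (chr3:137980716-137980983, fold 3.38).

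H3K4me1 covered more E9.5-gained peaks in 2Runx1 than in Ctrl fetuses, as it did for every set. At E13.5 the broad H3K4me1 list of 2Runx1 cells covered 2242 E9.5-gained peaks (23.7%), and that of Ctrl cells 854 (9.04%). The lists themselves covered 88841615 bp in 2Runx1 and 33435442 bp in Ctrl, and the part of this length in the shares was not tested. The reverse set had 23.9% and 9.48%, close to the E9.5-gained peaks, and shared peaks had 54.7% and 29.9%. Within the E9.5-gained peaks the 2Runx1 share fell with fold, at 31.7% under a fold of 4, 16.5% from 4 to 6, 12.9% from 6 to 10 and 7.02% at 10 or more. In the labels, the sample descriptions of the 2Runx1 input and of 1 of its H3K4me1 libraries name each other's kind of file, so which libraries entered the 2Runx1 list is uncertain. H3K4me1 was measured at E13.5, where these regions were not 1Runx1 peaks.

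The RNA of nearby genes was compared between E9.5 1Runx1 and Ctrl libraries. A near gene had its start site within 50 kb of a summit and nearest to it, which tied 5094 peaks (56.0% of those off chromosome 18) to 3856 genes. Of these, 2940 genes had 1 peak, 675 had 2 and 241 had 3 or more. The low-value filter (at least 1 RPKM in 2 libraries) kept 2288 of the 3856 genes, so the counts cover these and not all near genes. At E9.5, 30 of the 2288 (1.31%) were higher in 1Runx1 cells and 9 (0.393%) were lower, at a limma adjusted p under 0.05. Over all 9886 tested genes with a start site, 0.88% were higher and 0.212% lower. The median log2 difference of the near genes was 0.00, against 0.01 over all of these. Near genes with 1, 2 and 3 or more peaks were higher in 1.11%, 1.91% and 1.83% of cases and lower in 0.234%, 0.718% and 1.22%, the last 3 shares resting on 4, 3 and 2 genes. Genes near a peak of the reverse set were higher in 0.842% of cases and lower in 0.344%. Those near a peak gained at both stages were higher in 2.08% and lower in 0.416%. No test was run on the difference from the background. Of the 170 tested genes whose strongest E9.5-gained peak had a fold of 6 to 10, limma called none in either direction, with 23 at an unadjusted p under 0.05, and over all 9886 genes 1165 (11.8%) had such a p. Of the 7 genes at 10 or more none was called, with 2 at an unadjusted p under 0.05.

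Runx1 itself held 3 E9.5-gained peaks inside its gene body (chr16:92601466-92826074), at chr16:92675644-92675758 (fold 5.90), chr16:92685835-92686126 (fold 3.84) and chr16:92822272-92822579 (fold 4.03). The deposited RNA values do not separate the added copy from the native gene, and Runx1 rose by 3.12 ± 0.10 log2 (difference of log2(RPKM + 1) ± SE, limma adjusted p 1.16e-07).
Cdkn1a, the cell-cycle inhibitor p21, had 36.9 and 47.3 RPKM in 1Runx1 cells, against 8.48 and 7.59 RPKM in Ctrl cells. It rose by 2.25 ± 0.12 log2 (limma adjusted p 5e-06), and its peak, chr17:29063334-29063512 (fold 4.43), lay 27.5 kb from the start site.
Ltc4s, which makes leukotriene C4, had 4.64 and 4.69 RPKM in 1Runx1 cells, against 1.15 and 0.759 RPKM in Ctrl cells, and rose by 1.54 ± 0.14 log2 (limma adjusted p 0.000417). Its peak, chr11:50245486-50245694 (fold 3.53), lay 7.0 kb from the start site.
Tmem163, a zinc transporter, had 2.46 and 2.57 RPKM in 1Runx1 cells, against 0.175 and 0.262 RPKM in Ctrl cells, and rose by 1.53 ± 0.13 log2 (limma adjusted p 0.000315). Both of its peaks, chr1:127653974-127654080 and chr1:127669014-127669163, had a fold of 3.54 and lay inside the gene.
Lrrc55, an accessory subunit of a potassium channel, had 3.91 and 3.99 RPKM in 1Runx1 cells, against 0.741 and 0.828 RPKM in Ctrl cells, and rose by 1.47 ± 0.13 log2 (limma adjusted p 0.000365). Its 2 peaks lay 48.0 kb and 47.1 kb from the start site.
These genes were chosen for their difference in these same libraries, so the gap between the groups is a description.

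The other 5 of the 10 largest increases were smaller, between 0.98 and 1.26 log2. Art4, an ADP-ribosyltransferase that carries a blood group antigen in human, had 8.15 and 9.32 RPKM in 1Runx1 cells, against 2.89 and 3.22 RPKM in Ctrl cells. Plcg2, a phospholipase of immune receptor signalling, had 13.55 and 16.2 RPKM in 1Runx1 cells, against 6.30 and 6.63 RPKM in Ctrl cells, and 3 peaks. Npnt, the integrin ligand nephronectin, had 6.82 and 7.12 RPKM in 1Runx1 cells, against 2.68 and 2.92 RPKM in Ctrl cells. No library of one group reached the other in any of these genes. They were chosen for their difference in these same libraries, and groups did not overlap in 48.9% of all tested genes with a start site. The log2 differences were 1.26 for Art4, 1.08 for Plcg2 and 1.07 for Npnt. Phlda3, a repressor of AKT, had 30.1 and 35.3 RPKM in 1Runx1 cells, against 15.3 and 16.9 RPKM in Ctrl cells (0.98 log2). Fcer1g, the shared γ chain of Fc receptors, had 4.29 and 4.46 RPKM in 1Runx1 cells, against 1.64 and 1.45 RPKM in Ctrl cells (1.08 log2). Fcer1g is also 1 of the 14 macrophage markers, of which 7 in 1Runx1 cells, against 8 in Ctrl cells, were under 0.1 RPKM. The part of macrophages in this result was not tested. In sorted bulk cells, more cells of a type and more RNA per cell cannot be told apart.

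The remaining 20 increases ran from 0.33 to 0.83 log2. Lcp2, an adaptor of immune receptor signalling, had 2.52 and 2.86 RPKM in 1Runx1 cells, against 1.07 and 1.08 RPKM in Ctrl cells. Bbc3 and Bax, which promote apoptosis in the BCL2 family, rose by 0.75 and 0.33 log2. Nfkbia, the inhibitor of NF-κB, had 3 peaks and rose by 0.51 log2, and Klf11, a zinc-finger factor, rose by 0.59 log2. The others were Ptpre, Atoh8, Ank, Ier3, Mxra7, Fah, Ptgs1, Ppp1r15a, Bckdhb, Kcnk5, Scarb2, S100a11, Lmo4, H2aj and Mmd. Only Ppp1r15a had an E9.5-gained peak within 1 kb of its start site, at 0.807 kb.

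The 9 decreases were all under 0.7 in size as differences of log2(RPKM + 1), a scale that understates those of low genes. With 0.1 in place of 1 added to RPKM, 4931406H21Rik differed by -1.30 and Corin by -1.21 log2. The others then ran from -0.59 to -0.29 log2, and Corin, 4632427E13Rik and Bcat1 were not called. Corin, a membrane protease, had 0.647 and 0.597 RPKM in 1Runx1 cells, against 1.57 and 1.55 RPKM in Ctrl cells, and fell by 0.66 log2 (limma adjusted p 0.0408). Bcat1, an aminotransferase of branched-chain amino acids, had 4.81 and 4.46 RPKM in 1Runx1 cells, against 6.91 and 6.39 RPKM in Ctrl cells, and fell by 0.44 log2 (limma adjusted p 0.0485). It had 6 E9.5-gained peaks nearby. Clec14a, an endothelial lectin, had 42.0 and 41.9 RPKM in 1Runx1 cells, against 50.8 and 51.9 RPKM in Ctrl cells, and fell by 0.28 log2 (limma adjusted p 0.0169). The others were 4632427E13Rik, 4931406H21Rik, Sft2d2, Prr5l, Cmtm6 and the splicing regulator Rbm5. Over all tested genes with a start site, leaving out any E9.5 library gave fewer E9.5 calls in either direction. With any of the 4 E9.5 libraries left out in turn, 0 to 5 near genes were called lower in place of 9, and 11 to 17 were called higher in place of 30. The 0 came without either Ctrl library, by limma, and the 5 without 1Runx1 replicate 1. Cdkn1a, Ltc4s, Tmem163, Lrrc55, Npnt and Plcg2 kept their call with each of the 4 left out. Phlda3 lost it in 2 of the 4 cases, and Art4, Fcer1g, Corin, Bcat1, Clec14a, Cmtm6 and 4931406H21Rik lost it in all 4. The other 4 decreases lost it in 3 cases each.

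**Figure D4:**
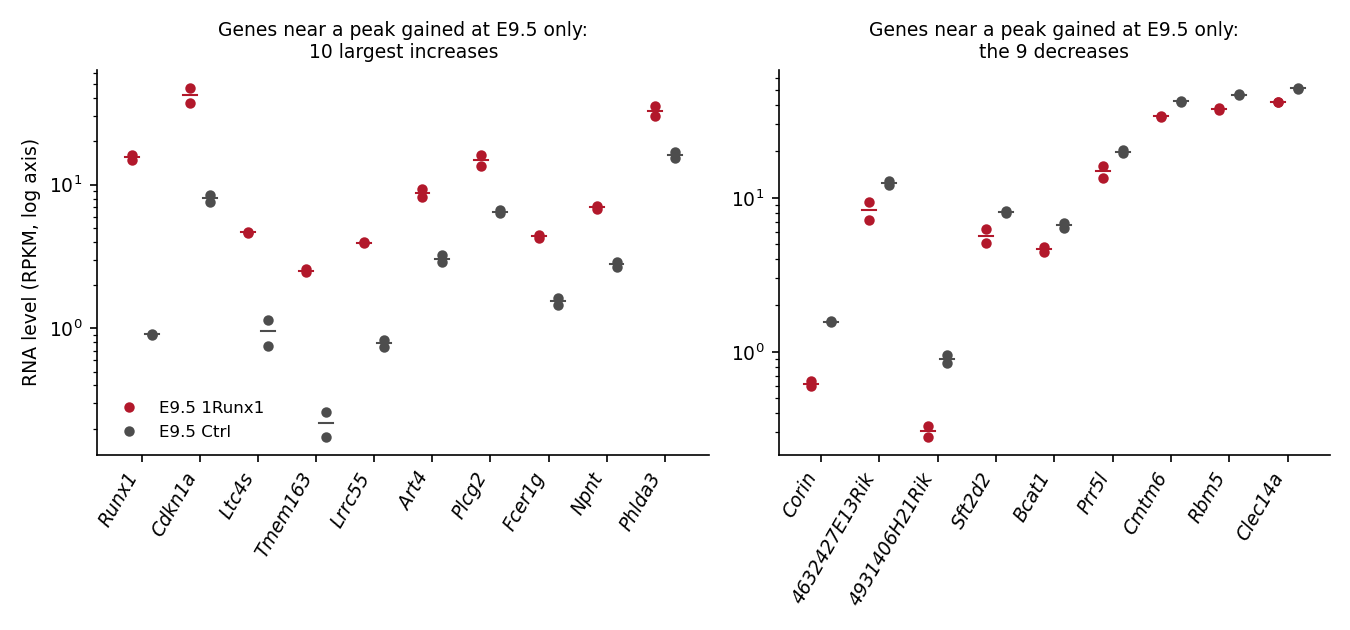
RNA level (vertical axis, RPKM on a log scale) of the 10 near genes with the largest increase (left panel) and the 9 near genes that decreased (right panel) at E9.5; points are libraries and bars are means, with 1Runx1 in red and Ctrl in grey (n = 2 each). Runx1 shows the widest gap, 14.9 and 16.2 RPKM in 1Runx1 cells against 0.915 and 0.904 RPKM in Ctrl cells. Among the decreases the gap is clear for Corin and narrow for Clec14a.

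Among the tested genes with the most E9.5-gained peaks, Bcat1 was the 1 that was called. Pik3r1, a regulatory subunit of PI3-kinase, had 8 E9.5-gained peaks within 50 kb, the most of any gene. It had 6.98 and 8.16 RPKM in 1Runx1 cells, against 7.55 and 6.67 RPKM in Ctrl cells, and the groups overlapped. The noncoding Gm29682 had 7 peaks and was under 0.2 RPKM in every E9.5 library. Ctbp2, a corepressor, and Filip1l had 6 peaks each, with limma adjusted p of 0.599 and 0.617, and so did Tmcc3, with an adjusted p of 0.778.

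The 44 E9.5-gained peaks near genes that rose had a median fold of 3.54 and a highest fold of 5.90, and 16 of them lay within 10 kb of the start site. In the E13.5 lists, 4 of the 44 were in 2Runx1 and not Ctrl, beside Klf11, S100a11, Mmd and Plcg2, and 2 were in Ctrl and not 2Runx1. Over all 9448 E9.5-gained peaks these counts were 686 (7.26%) and 687 (7.27%). H3K4me1 covered 14 of the 44 in 2Runx1 cells and 6 in Ctrl cells, against 23.7% and 9.04% of all E9.5-gained peaks. All 30 genes that rose also had a peak shared with E9.5 Ctrl within 50 kb, as did 9147 of all 9886 tested genes with a start site. A peak of the reverse set lay near 11 of the 30, against 1015 of the 2288 tested near genes. A peak gained at both stages lay near 6 of the 30, against 315 of the 2288.

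Among hemogenic regulators, 14 of 18 genes had a start site and 9 of these had an E9.5-gained peak nearby. Over the RNA table, 3856 of the 18740 genes with a start site had such a peak. Limma tested 6 of the 9 and called none, with 3 (Gata2, Hhex and Etv6) at an unadjusted p under 0.05. That level was reached by 11.8% of all tested genes with a start site. Gata2, a GATA factor of early blood formation, had 28.1 and 28.5 RPKM in 1Runx1 cells, against 21.0 and 22.4 RPKM in Ctrl cells (0.37 ± 0.09 log2, limma adjusted p 0.0993). Hhex, a homeobox factor with a peak 0.752 kb from its start site, had 64.7 and 65.3 RPKM in 1Runx1 cells, against 55.9 and 53.7 RPKM in Ctrl cells (0.24 log2, limma adjusted p 0.219). Etv6, an ETS repressor, had 23.7 and 25.1 RPKM in 1Runx1 cells, against 21.2 and 19.8 RPKM in Ctrl cells (limma adjusted p 0.23). Tal1, a factor at the base of blood formation, differed by 0.17 log2 (limma adjusted p 0.432) and the receptor gene Kit by -0.25 log2 (limma adjusted p 0.515). The groups of 2 libraries did not overlap in 48.9% of all tested genes with a start site. Gfi1, Myb and Hlf were too low to be tested.

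The other lists held few calls near an E9.5-gained peak. As a background, 3856 of the 18740 genes with a start site had such a peak. An unadjusted limma p under 0.05 was reached by 11.8% of all tested genes with a start site. Of 24 TGFβ target genes, 12 had a start site and 6 of these a peak nearby. Of the 6, 5 were tested and Cdkn1a was the 1 that rose. Ccn1 (0.23 log2) and Tgif1 (-0.26 log2) had an unadjusted p under 0.05 and were not called. Of 25 genes of the TGFβ and BMP pathway, 19 had a start site and 6 of these a peak nearby. Limma called none of the 6, with 0 at an unadjusted p under 0.05. Among them the ligand gene Tgfb2 had 3 peaks, with 5.95 and 6.14 RPKM in 1Runx1 cells, against 5.94 and 5.80 RPKM in Ctrl cells. Integrins had a peak near 6 of 18 genes (13 with a start site) and arterial genes near 6 of 14 (12 with a start site). Venous genes had a peak near 2 of 7 (6 with a start site). Limma called none of the integrin, arterial and venous genes near a peak, with 1, Notch1, at an unadjusted p under 0.05. Gja5, a connexin of arteries, had 33.4 and 36.7 RPKM in 1Runx1 cells, against 49.4 and 49.5 RPKM in Ctrl cells (-0.49 ± 0.24 log2, limma adjusted p 0.454). Runx3 had 3 E9.5-gained peaks and at most 0.0210 RPKM at E9.5. A list of the 10 largest E9.5 increases (9 with a start site) had a peak near 3 (Cdkn1a, Ltc4s and Tmem163). That list was chosen on these samples and is no independent evidence.

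At E13.5 the near genes followed the background. With 1 added copy, 134 of the 2288 (5.86%) were higher than Ctrl and 81 (3.54%) were lower, against 6.32% and 4.03% of all tested genes with a start site, in a comparison with 1 Ctrl library. With 2 copies and the same Ctrl library, 2 near genes were higher and 1 was lower, against 0.142% and 0.121% of all. In liver, 387 (16.9%) were higher and 220 (9.62%) lower in 2Runx1 than in Ctrl cells, against 17.7% and 7.84% of all.

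The RNA effect of 1 copy was then compared between stages in the same fit, since the regions themselves were defined by stage. The effect was larger at E9.5 than at E13.5 in 18 near genes (0.787%) and smaller in 24 (1.05%), against 1.11% and 1.08% of all tested genes with a start site. These 42 calls became 4 when the E9.5 and E13.5 libraries were fitted together without the liver libraries. They also depended on single libraries, being fewer without any 1 of the E9.5 libraries and more without E13.5 1Runx1 replicate 2. Calls over all tested genes with a start site changed in the same direction under each of these. Of the 30 genes that rose at E9.5, 15 also rose at E13.5 with 1 copy and none fell, while of the 9 that fell 3 also fell. Over all tested genes with a start site, 46 of the 87 higher at E9.5 (52.9%) were also higher at E13.5 and 8 of the 21 lower (38.1%) were also lower. The E13.5 calls borrow their spread from the other groups, and with each stage fitted alone 1 near gene was higher at E13.5 in place of 134. Calls over all tested genes with a start site fell as well. Cdkn1a had 31.8 and 39.9 RPKM in E13.5 1Runx1 cells, against 8.05 RPKM in the E13.5 Ctrl library, a difference of 2.02 log2. Ltc4s differed by 1.91 and Lrrc55 by 1.45 log2 at E13.5, close to their E9.5 values. A stage difference was called in 4 of the 30 (Tmem163, Mxra7, Kcnk5 and Scarb2) and in 1 of the 9 (Rbm5). The peaks of these genes were absent from the E13.5 1Runx1 list by the rule, while 18 of the 39 genes were called in the same direction at both stages.

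**Figure D5:**
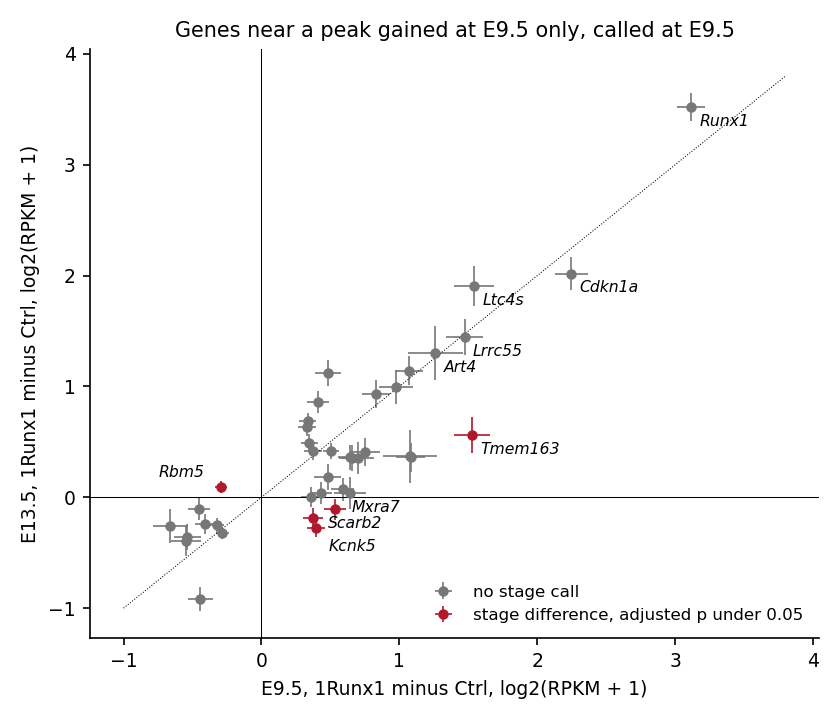
Effect of 1 added copy on RNA at E13.5 (vertical axis) against that at E9.5 (horizontal axis), as differences of log2(RPKM + 1) with SE bars, for the 39 near genes called at E9.5; the dotted line marks equal effects. Runx1 and Cdkn1a lie near the line, and the 5 red genes have a called stage difference.

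Promoter windows under E9.5-gained summits held short motifs at these rates. The RUNX core was in 24 of 97 windows (24.7%, exact 95% interval 16.5 to 34.5%), against 12 of 30 (40.0%) under peaks gained at both stages, 18.2% of 137 under the reverse set, 11.6% of 9911 under shared peaks and 16.8% of all 32851 windows. The interval includes the shares over all windows and over the reverse set, the first narrowly (lower bound 16.54% against 16.76%). It treats windows as independent, while the 97 windows came from 90 regions and 92 genes. It may thus be too narrow and is no test of a difference. In 18 of the 24 windows a core lay inside the peak, at a median of 53 bases from the summit over the 24. The longer form TGTGGTT, which contains the core, was in 9.28% of the E9.5-gained windows, against 30.0% under peaks gained at both stages and 5.27% of all. A rearranged core, TGGTGT, was in 15.5%, against 14.1% of all.

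Of the 12 motifs searched on both strands, the GATA form AGATAA (20.6%, against 11.2% of all) and the AP-1 form TGANTCA (17.5%, against 7.81% of all) stood highest over all windows. GGAAGT, an ETS core, was in 27.8%, against 23.8% of all, and CAGGAAGT, which contains it, in 3.09%, against 3.33% of all. The SOX form ACAATG was in 16.5% (12.6% of all), the E-box CAGCTG in 14.4% (16.3%), the TEAD form GGAATG in 14.4% (14.7%), the SMAD form GTCTGG in 12.4% (17.9%) and the MEF2 form TATTTATA in 2.06% (1.70%). Median GC content was 51.3% under E9.5-gained summits and 62.3% under shared summits, which bears on any comparison between those sets. A match is a match of letters, and the 97 windows covered 90 of the 9448 regions. The windows belonged to 92 genes, of which 8 passed the RNA filter and none was called by limma at E9.5, with 1 (Nfam1) at an unadjusted p under 0.05. That level was met by 11.8% of all tested genes with a start site.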

How the data were processed

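Endothelial cells were profiled by RNA-seq (13 libraries), ATAC-seq (14) and H3K4me1 ChIP-seq (4, with 2 inputs). Per the submitters' processing notes, Trim Galore 0.6.4, Bowtie2 2.3.5.1, MACS2 2.1.4, STAR 2.7.3a, featureCounts of Subread 2.0.0 and edgeR were used with mm10 and GRCm38. The deposited peak lists, 1 per group over pooled replicates, give a fold enrichment ratio and a −log10 q value per peak, as MACS2 writes them, and the offset of the summit. The deposited RNA table gives RPKM per gene and library. Its values were whole reads within 0.001 reads for 100% of the 20720 genes above 0, at 37754246 to 44540403 reads a library.

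From these files, overlaps were counted at 1 bp or more, with no test. RNA was tested by limma 3.58.1 (R 4.3.3) on log2(RPKM + 1) as 7 group means with a mean-variance trend, over all 12546 of 25239 genes with at least 1 RPKM in 2 libraries, with Benjamini-Hochberg adjusted p under 0.05. Fold changes on this scale understate those of low genes. A start site was placed for 9886 of the tested genes from RefSeq GRCm38.p6, by symbol or identifier. A near gene had the nearest start site among genes of the RNA table, within 50 kb. Intervals are exact binomial and cover counting error only. The tests were checked on simulated data. Near genes named in the text were all those called at E9.5, those with the most peaks, and list genes with a peak nearby. The members, gene lists and printed promoters were chosen with earlier results of these data known. Motifs around all summits were not searched, since no genome was used here. Python 3.11.15 with pandas 2.3.3, NumPy 2.4.6, SciPy 1.17.1 and matplotlib 3.10.9 did the rest. Alternatives covered the pseudocount, the filter, quantile normalization, stages fitted alone, each library left out, a replicate block, voom on recovered reads, distances, overlap rules and a stricter q. For the stage difference, the E9.5 and E13.5 libraries were fitted together without liver in place of stages fitted alone.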

Additional observations from a re-analysis of the deposited data

Results flagged for a closer look

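In 5 of the 39 near genes called at E9.5, the effect of 1 added copy differed between E9.5 and E13.5 by a test of that difference in the same limma fit. Tmem163 differed by 0.97 ± 0.21 log2 (SE, limma adjusted p 0.0440), with effects of 1.53 at E9.5 and 0.56 at E13.5. Mxra7, a matrix remodelling protein, differed by 0.64 log2 (limma adjusted p 0.0330), with effects of 0.53 and -0.11. Kcnk5, a potassium channel, differed by 0.67 log2 (limma adjusted p 0.0182), with effects of 0.40 and -0.28. Scarb2, a lysosomal membrane protein, differed by 0.56 log2 (limma adjusted p 0.0393), with effects of 0.37 and -0.18. Rbm5 differed by -0.39 log2 (limma adjusted p 0.0281), with effects of -0.29 and 0.09. The E13.5 effects rest on 1 Ctrl library, and stage and cross cannot be told apart.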

How the results depend on the processing

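Runx1 rose at E9.5 under every alternative. The 30 near genes higher at E9.5 became 10 with stages fitted alone, 14 within 10 kb, 17 with −log10 q of at least 5, and 11 to 17 with 1 library left out. The 9 lower became 2, 4, 4 and 0 to 5 under these, and 15 with voom on recovered reads, an alternative chosen after seeing the data. The 134 higher at E13.5 became 1 with stages fitted alone, 54 within 10 kb and 64 with the stricter q. The 42 stage differences became 22 with a pseudocount of 0.1, 64 with quantile normalization, 4 with stages fitted alone, 20 within 10 kb, 14 with the stricter q and 4 to 74 with 1 library left out, 74 being without E13.5 1Runx1 replicate 2. A lone library was then assumed to vary like the other groups. The cause of these changes was not tested, except that a shorter distance or stricter q leaves fewer genes. With stages fitted alone, 0.437% of near genes were higher and 0.0874% lower at E9.5, against 0.223% and 0.0405% of all tested genes with a start site. Within 10 kb the shares were 1.64% and 0.469%, and with the stricter q 1.39% and 0.327%, against 0.88% and 0.212% of all. The E13.5 and stage calls over all genes also fell with stages fitted alone, and the E9.5 calls with any E9.5 library left out.

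The stricter q left 4555 of the 9448 regions, and their share in E13.5 2Runx1 and not Ctrl was 9.64%. Overlap over at least 50% of the region gave a liver share of 0.861%, and the 7-letter RUNX form, added after seeing the data, 9.28% of windows. Over 180 recomputed values of 18 named genes, 111 kept the call, 69 lost it and 0 reversed.

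Replicate numbers did not pair the E9.5 samples (correlation of deviations across genes -0.061). With the replicate block, 27 near genes were higher and 9 lower at E9.5, 108 were higher at E13.5 and 46 differed by stage. The limits are 1 pooled peak list per group, 2 RNA libraries per group at most, and 1 E13.5 Ctrl library.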
